A study of Mus musculus with 6 samples.

Results

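The genes here belong to families whose enzymes attach glucuronic acid, in some cases another sugar, or sulfate to bilirubin, hormones, bile acids and drugs. They were chosen by name: every listed gene whose symbol starts with Ugt1a, Ugt2a, Ugt2b or Ugt3a and a number, or with Sult and a number. The rule found 31 of 16123 listed genes, 20 Ugt and 11 Sult. RNA was measured in livers of adult mice, with 3 libraries from mice trained on a treadmill and 3 from mice kept sedentary, in a study of moderate exercise, liver metabolism and protein lactylation. Each trained mouse ran 22 km in 6 weeks of training, and livers were collected 24 h after the final session. Both groups were perfused with buffered saline before the liver was removed. Sex and strain are not given in the labels used here, and no drug or inducer is named. The design text describes 3 mice per group. The p-values and standard errors measure only the spread between these libraries, which may be technical.

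UDP-glucuronosyltransferases (Ugt) sit in the membrane of the endoplasmic reticulum and, apart from Ugt3a, use UDP-glucuronic acid made from UDP-glucose. Cytosolic sulfotransferases (Sult) use 3′-phosphoadenosine-5′-phosphosulfate (PAPS), which is made from sulfate and ATP. The conjugates dissolve in water and leave the hepatocyte through transporters into bile or blood. Liver is a main site of both reactions, and several of the genes are known targets of the nuclear receptors CAR and PXR and of the aryl hydrocarbon receptor AHR. The Ugt1a enzymes come from 1 locus, where each enzyme has a first exon of its own spliced to a common set of exons, so that they differ in the part that binds the acceptor.

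Library totals were 17941298 to 18371949 counts. Libraries of a group were close to identical, with a common coefficient of variation beyond counting noise (edgeR) of 1.84%, which is unusually small for separate mice; differences as small as 1.04-fold (Ugt2a3) passed the test. In bulk liver RNA, fewer cells of a type and less RNA per cell cannot be told apart. All 8 hepatocyte markers were present, 5 higher and 2 lower in exercise by the edgeR test, with a summed FPKM of 81257 to 82796 in the sedentary and 83807 to 84261 in the exercise libraries. Of 7 pericentral hepatocyte markers, 4 rose and 1 fell, and their summed FPKM was 6338 to 6371 and 7075 to 7153. Of 7 periportal markers, 2 rose and 4 fell, and their summed FPKM was 5172 to 5282 and 5730 to 5802. Of 6 Kupffer cell markers, 4 fell, with sums of 177 to 180 and 149 to 152. None of the markers in the 3 groups named last was at 0 in all libraries. Endothelial markers rose in 2 of 5 and stellate cell markers in 3 of 4 tested. The 2 kidney tubule markers listed were at or near 0, with sums of 0 to 0.040. The part of these marker differences in the results below was not tested.

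Of the 31 genes, 22 had a mean FPKM (fragments relative to transcript length and to library size) of at least 1 and were tested, 15 Ugt and 7 Sult. With edgeR's quasi-likelihood test at an adjusted p of 0.05, 8 rose in exercise, 8 fell and 6 did not pass. Over all 10266 genes tested, 38.1% passed, 19.1% higher and 19% lower. Scaled by library totals alone, without edgeR's TMM scaling, 3537 of all genes were higher and 1203 lower, and the median of all genes was 0.077 on the log2 scale. The median log2 fold change of the 22 was 0.016, against -0.00062 over all genes. In FPKM, which carries no TMM scaling, the 2 groups of 3 libraries did not overlap for 11 genes higher and 6 lower in exercise, and overlapped for 5. The same held for 51% of all genes tested, 36.6% higher and 14.3% lower. The genes that rose were Ugt1a5, Ugt1a9, Ugt2b1, Ugt2b5, Ugt2b36, Ugt3a1, Sult1d1 and Sult2a8. Those that fell were Ugt2a3, Ugt2b35, Ugt2b37, Ugt2b38, Sult1a1, Sult1b1, Sult2a7 and Sult5a1. Most of the changes were small, with a median size of 0.21 on the log2 scale among the 16, against 0.24 over all genes that passed. Against a 1.2-fold change, 6.36% of all genes passed, and of the 22 only Ugt1a5 and Ugt1a9 (higher) and Ugt2b37 and Sult5a1 (lower) did. In DESeq2 24.5% of all genes passed, with 9 Ugt and 4 Sult genes. With library totals alone 46.2% passed, with 13 Ugt and 5 Sult genes, and in limma on log2(FPKM + 1) 38.6%, with 11 Ugt and 5 Sult genes. With libraries summed per group and an assumed variation of 0.1 between mice, 1.71% passed, and Ugt2b37 alone among the 22. That gene had a mean FPKM of at least 1 in the sedentary group only.

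**Figure D1:**
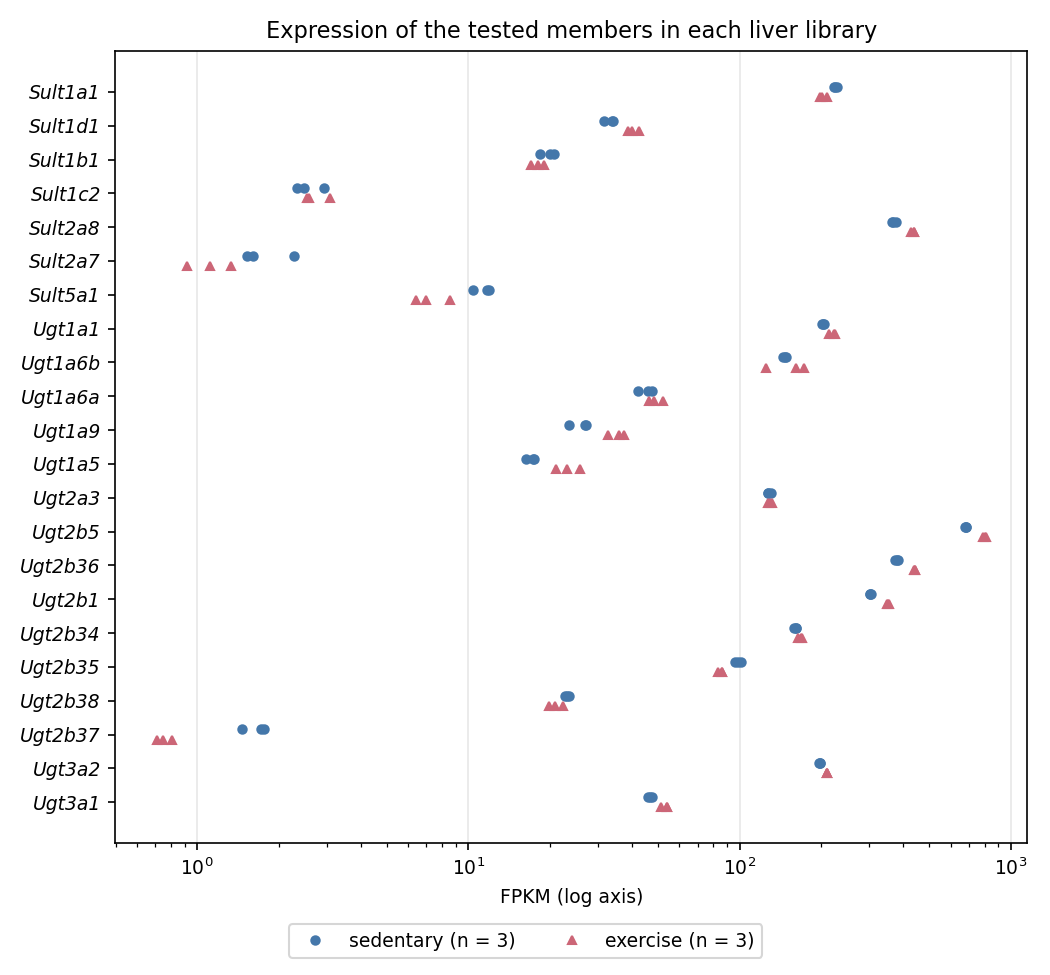
FPKM of the 22 tested genes on a log axis, 1 circle per sedentary and 1 triangle per exercise library (n = 3 each). Levels ran from about 1 FPKM for Ugt2b37 and Sult2a7 to 789 to 807 FPKM for Ugt2b5 in exercise, and the groups overlap for 5 genes, among them Ugt1a6b with 1 low exercise library.

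Ugt RNA was led by the Ugt2b enzymes, which conjugate steroids, bile acids and drugs such as morphine. Summed over the 7 Ugt2b genes, FPKM was 1648 ± 7.84 in sedentary and 1871 ± 14.02 in exercise (SD, n = 3 each), 67.0% and 68.1% of all Ugt FPKM. The 3 most abundant, Ugt2b5, Ugt2b36 and Ugt2b1, rose, the less abundant Ugt2b35, Ugt2b38 and Ugt2b37 fell, and Ugt2b34 did not pass. The summed Ugt2b counts were higher in exercise by 0.085 on the log2 scale after TMM scaling and by 0.17 with library totals alone.

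The 3 genes Ugt2b5, Ugt2b37 and Ugt2b38 are close copies. Their transcripts (GENCODE M21) were 95.7% identical between Ugt2b5 and Ugt2b38, 93.6% between Ugt2b5 and Ugt2b37 and 93.5% between Ugt2b37 and Ugt2b38. Their promoter windows of 300 bases were 90%, 89.5% and 95.5% identical in the same order. The stretches from 100 bases before to 20 bases after the start (RefSeq, GRCm38.p6, all on the minus strand) are shown because these near-identical starts belong to 1 gene that rose and 2 that fell. Capitals mark the longest run of letters common to all 3, which is 62 bases long.
Ugt2b5, chr5:87140321-87140440: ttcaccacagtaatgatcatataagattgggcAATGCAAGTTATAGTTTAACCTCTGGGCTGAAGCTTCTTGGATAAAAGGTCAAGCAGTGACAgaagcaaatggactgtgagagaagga
Ugt2b37, chr5:87254769-87254888: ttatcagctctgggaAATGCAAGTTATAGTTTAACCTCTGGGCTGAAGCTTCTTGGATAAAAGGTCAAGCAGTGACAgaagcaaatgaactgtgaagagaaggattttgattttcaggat
Ugt2b38, chr5:87424184-87424303: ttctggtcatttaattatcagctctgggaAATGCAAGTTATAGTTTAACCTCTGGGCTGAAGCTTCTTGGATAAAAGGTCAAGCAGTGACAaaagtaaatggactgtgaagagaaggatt
The run began at base -68 from the annotated start in Ugt2b5, -85 in Ugt2b37 and -71 in Ugt2b38.

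Ugt2b5 (gene ID 22238, chr5:87124946-87140340) had the highest level of any Ugt or Sult gene. Its FPKM was 683, 679 and 683 in the sedentary and 805, 807 and 789 in the exercise libraries. Every exercise library was above every sedentary one, and the log2 fold change was 0.16 (SE 0.019, edgeR adjusted p 3.02e-09). For Ugt2b36 (gene ID 231396, chr5:87065927-87092555) the FPKM was 375, 383 and 380 against 440, 443 and 443 in exercise. The groups did not overlap, and the log2 fold change was 0.15 (SE 0.021, edgeR adjusted p 9.12e-08). Ugt2b1 (gene ID 71773, chr5:86916639-86926503) stood at 302, 304 and 304 FPKM in sedentary and 350, 357 and 354 in exercise. It was also higher in all 3 exercise libraries, with a log2 fold change of 0.15 (SE 0.020, edgeR adjusted p 7.44e-08). These 3 genes carried most of the Ugt FPKM, 27.7% for Ugt2b5, 15.4% for Ugt2b36 and 12.3% for Ugt2b1 in sedentary liver.

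Ugt2b35 (gene ID 243085, chr5:87000860-87013274) moved the other way. It had an FPKM of 95.7, 98.8 and 101 in the sedentary and 86.4, 86.1 and 83.5 in the exercise libraries. All exercise libraries lay below the sedentary ones, and the log2 fold change was -0.28 (SE 0.025, edgeR adjusted p 3.92e-13), the smallest p of the 22 genes. Ugt2b38 (gene ID 100559, chr5:87409939-87424203) had 22.7, 23.5 and 23.2 FPKM in sedentary and 19.9, 20.8 and 22.4 in exercise. The lowest sedentary library was just above the highest exercise one, and the log2 fold change was -0.21 (SE 0.050, edgeR adjusted p 0.000779). Ugt2b37 (gene ID 112417, chr5:87240492-87254788) was counted at 42, 49 and 50.73 reads in sedentary and 20, 21 and 23 in exercise, or 1.46, 1.72 and 1.77 against 0.71, 0.75 and 0.81 FPKM. Its sedentary libraries were all well above the exercise ones, by 2.30-fold in the fit, and the log2 fold change of -1.20 (SE 0.21, edgeR adjusted p 6.1e-06) was the largest of the 22. Its mean FPKM was 1.65 in sedentary and 0.757 in exercise, so it met the filter of 1 only through the sedentary group. The size of its fall is therefore not independent of that filter. Ugt2b34 was at 159 to 162 FPKM in sedentary and 165 to 170 in exercise without overlap. Its log2 fold change after TMM scaling was -0.014 (edgeR adjusted p 0.657), and it was positive in both limma fits on FPKM and, past the threshold, with library totals alone (0.064, adjusted p 0.0162).

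Counts of 5 of the 7 Ugt2b genes were not whole, as happens when a read is divided among genes. Ugt2b5 and Ugt2b38 had such counts in all 6 libraries, and Ugt2b37, Ugt2b35 and Ugt2b36 in 1 each. Of the windows of 100 bases along the transcript, 24.7% in Ugt2b5 and 24.2% in Ugt2b38 were found letter for letter in another gene's transcript, against 1.06% in Ugt2b37. Ugt2b1, Ugt2b35 and Ugt2b36 had no such window. Summed over Ugt2b5, Ugt2b37 and Ugt2b38, the counts were whole, with 20531, 20279 and 20419 in sedentary and 23603, 23524 and 23271 in exercise. Ugt2b5 held nearly all of these reads and Ugt2b38 at most 676. Whether the fall of Ugt2b38 depends on how shared reads were assigned was not tested.

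**Figure D2:**
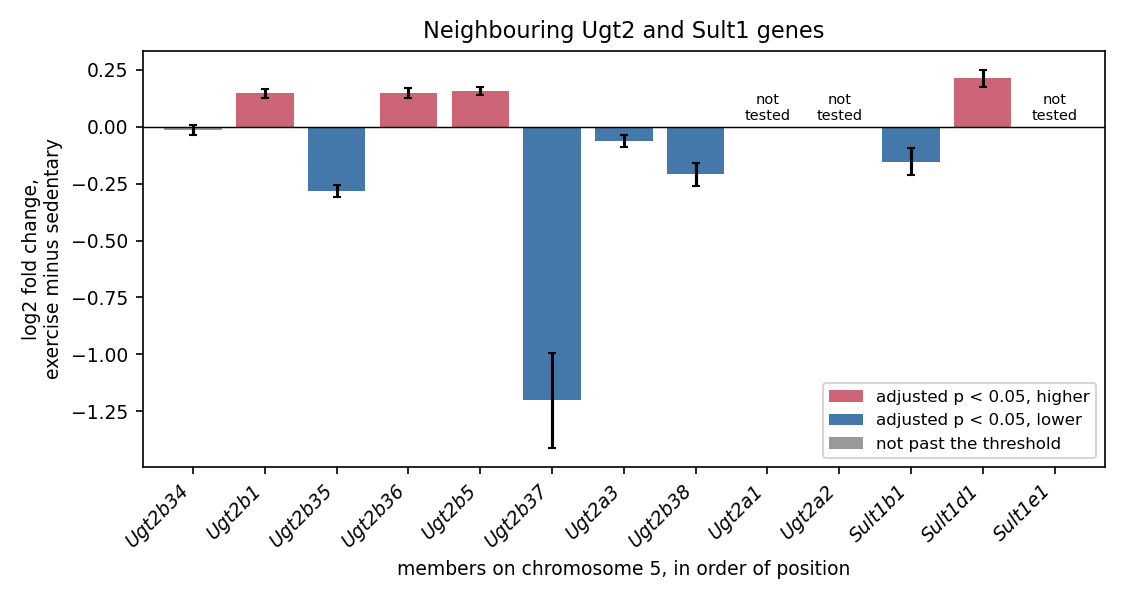
Log2 fold change (exercise minus sedentary, bars with standard errors) of the Ugt2 and Sult1 genes on chromosome 5, in order of position from Ugt2b34 to Sult1e1. Neighbours differ in direction: Ugt2b36 and Ugt2b5 rose by 0.15 and 0.16, with Ugt2b35 at -0.28 on one side and Ugt2b37 at -1.20 on the other.

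The Ugt2b genes lie next to each other on chromosome 5. By position the order was Ugt2b34, Ugt2b1, Ugt2b35, Ugt2b36, Ugt2b5, Ugt2b37, Ugt2a3, Ugt2b38, Ugt2a1 and Ugt2a2, followed by Sult1b1, Sult1d1 and Sult1e1. Genes that rose and genes that fell were interspersed along it. Ugt2a3 (gene ID 72094, chr5:87324972-87337195) had 127, 131 and 127 FPKM in sedentary and 131, 130 and 127 in exercise. The groups overlapped, and the log2 fold change of -0.063 passed by little (SE 0.026, edgeR adjusted p 0.0489). Under 14 of the 17 alternatives the call was lost or the sign turned, among them median-of-ratios scaling (adjusted p 0.0539), DESeq2 (0.14), no filter (0.126) and leaving out any single library but sedentary replicate 1 (0.0604 to 0.185). Ugt2a1, known from olfactory epithelium, and Ugt2a2, which shares most of its sequence, had at most 1 read in any library.

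In the Ugt1a locus, the 2 least abundant of the 5 tested genes, Ugt1a9 and Ugt1a5, rose by 1.30-fold each. Ugt1a1, the enzyme that conjugates bilirubin, did not pass, and neither did Ugt1a6a and Ugt1a6b, which conjugate small planar phenols. The junctions between own and common exon are shown because reads that lie wholly in the common part cannot tell the genes apart. For Ugt1a6a and Ugt1a6b the 30 bases before the junction are also the same, and a Ugt1a7c transcript has them too. Ugt1a5 shares its 30 bases with Ugt1a2, which had at most 2.43 reads in a library. In GENCODE M21 the common part began at base 88215044 of chromosome 1. It was 1311 bases long in Ugt1a1, Ugt1a5, Ugt1a6a and Ugt1a9, and 1317 in Ugt1a6b. Each line holds 30 bases of the gene's own exon in lower case and the first 30 common bases in capitals.
Ugt1a1: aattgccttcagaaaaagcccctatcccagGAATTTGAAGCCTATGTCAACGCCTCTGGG
Ugt1a5: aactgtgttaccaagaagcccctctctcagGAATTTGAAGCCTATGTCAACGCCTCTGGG
Ugt1a6a and Ugt1a6b: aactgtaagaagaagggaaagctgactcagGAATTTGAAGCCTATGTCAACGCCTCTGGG
Ugt1a9: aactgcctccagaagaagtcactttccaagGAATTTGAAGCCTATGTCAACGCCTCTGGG
All 8 Ugt1a genes listed had counts that were not whole. Windows of 100 bases found in another gene made up 57.2% of the Ugt1a1 transcript, 58.5% of Ugt1a9, 63.1% of Ugt1a5, 71.5% of Ugt1a6b and 100% of Ugt1a6a. A GENCODE transcript of Ugt1a7c contains the exons of Ugt1a6a, which sets the last value. These shares hold for GENCODE transcripts of 2190 to 2303 bases. Count, total and FPKM imply longer counted models, of 2892 to 2998 bases, for all of these genes but Ugt1a6b. The shared part of the counted models was not measured and may be larger. Ugt1a6a and Ugt1a6b transcripts were 98.9% identical. The levels of single Ugt1a genes are therefore uncertain, and their sum is not touched by the split.

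Ugt1a9 (gene ID 394434, chr1:88070779-88220002) had 23.5, 26.9 and 27.1 FPKM in sedentary and 37.5, 32.6 and 35.8 in exercise. The groups did not overlap, and the log2 fold change was 0.38 (SE 0.042, edgeR adjusted p 3.08e-10). Ugt1a5 (gene ID 394433, chr1:88166012-88220002) had 17.3, 17.4 and 16.3 FPKM in sedentary and 23.1, 21.1 and 25.8 in exercise. It too was higher in each exercise library, with a log2 fold change of 0.38 (SE 0.048, edgeR adjusted p 5.65e-09). Ugt1a1 (gene ID 394436, chr1:88211959-88220002) had the highest level of the locus, with 202, 202 and 205 FPKM in sedentary and 223, 214 and 225 in exercise. Its FPKM groups did not overlap, yet after TMM scaling the log2 fold change was 0.046 (SE 0.022, edgeR adjusted p 0.0972). It passed without TMM, in both limma fits and without exercise replicate 2 (0.067, adjusted p 0.026).

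Exercise replicate 2 stood apart in this locus. Summed over the 8 genes, the reads were 20828, 20970 and 20900 in sedentary and 23580, 20992 and 23978 in exercise, so that this library lay at the sedentary level. The largest gap was in Ugt1a6b, with 146 ± 1.95 FPKM in sedentary (SD, n = 3) and 162, 125 and 173 in exercise. Ugt1a6b overlapped between the groups, and its log2 fold change was -0.0081 (SE 0.048, edgeR adjusted p 0.913) with all libraries and 0.12 (adjusted p 0.00133) without that library. Ugt1a6a had 45.7, 47.4 and 42.2 FPKM in sedentary and 52.4, 46.2 and 48.4 in exercise, overlapping, with a log2 fold change of 0.043 (edgeR adjusted p 0.355). With library totals alone it passed (0.12, adjusted p 0.00498). Counted as 1 row, the locus had a log2 fold change of 0.072 (SE 0.025, edgeR adjusted p 0.0204). Its summed FPKM overlapped between the groups, at 434 to 441 in sedentary and 498, 440 and 510 in exercise. The edgeR SE also borrows from the spread of other genes, and for Ugt1a6b it was 0.048 against 0.14 in DESeq2. The rise of the locus therefore rests on exercise replicates 1 and 3. Exercise replicate 2 was not low in the Ugt2b and Ugt3a sums, at 1885 and 264 FPKM. The other exercise libraries had 1857 to 1871 and 261 to 264. Within the locus, Ugt1a9 took 5.89% ± 0.421 of the Ugt1a FPKM in sedentary and 7.32% ± 0.256 in exercise, and Ugt1a5 3.88% ± 0.149 and 4.83% ± 0.219 (SD, n = 3 each). Ugt1a6b took 33.4% ± 0.316 and 31.7% ± 2.86, a difference within the SD of the exercise libraries. Its FPKM also rests on a shorter transcript than those of the other 4, since count, total and FPKM imply 1977 to 1989 bases for Ugt1a6b and 2892 to 2998 for the rest. Ugt1a10, Ugt1a7c and Ugt1a2 were not tested, at 0.49 to 0.99 FPKM for Ugt1a10 and lower for the other two.

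**Figure D3:**
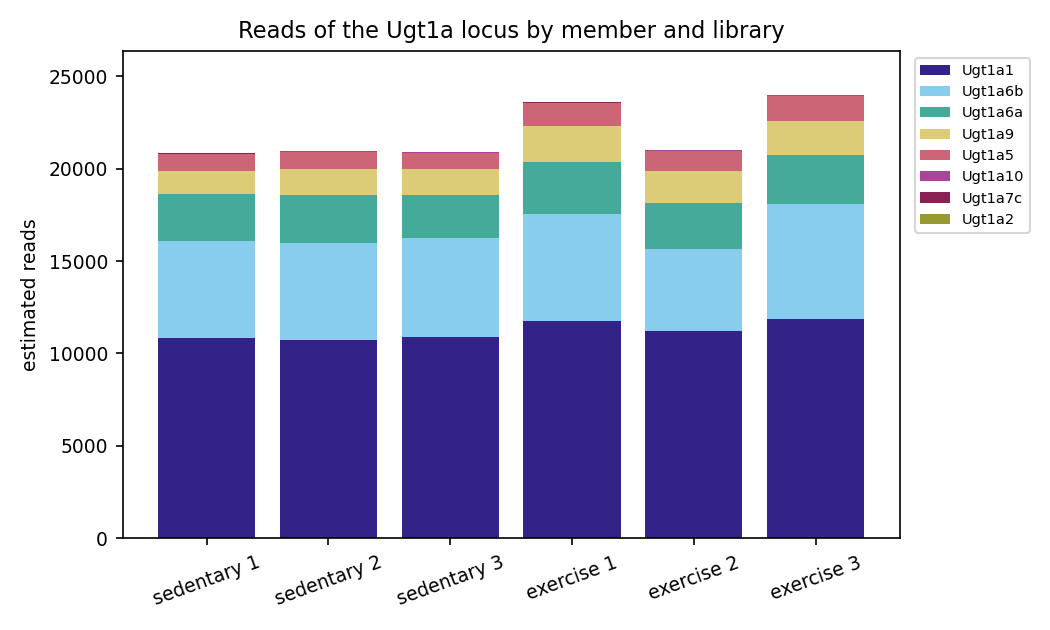
Estimated reads of the Ugt1a locus in each library, stacked by gene. Exercise replicates 1 and 3 reach 23580 and 23978 reads, while exercise replicate 2, with 20992, is level with the 3 sedentary libraries, and its Ugt1a6b segment is the smallest of the 6.

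Of the 2 Ugt3a genes, which use other UDP-sugars than glucuronic acid, Ugt3a1 rose and Ugt3a2 did not pass. Ugt3a1 (gene ID 105887, chr15:9279822-9315038) had 46.9, 45.8 and 47.5 FPKM in sedentary and 53.8, 54.0 and 51.2 in exercise. The groups did not overlap, and the log2 fold change was 0.11 (SE 0.034, edgeR adjusted p 0.00677). Ugt3a2 (chr15:9335551-9370955), the more abundant of them, had 196, 197 and 198 FPKM in sedentary and 210 in each exercise library. It was higher in all 3 in FPKM, but its log2 fold change after TMM scaling was 0.019 (SE 0.023, edgeR adjusted p 0.533), and it passed only without TMM and in the limma fits. Both transcripts were 92.1% identical without a shared window of 100 bases, and their counts were whole.

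**Figure D4:**
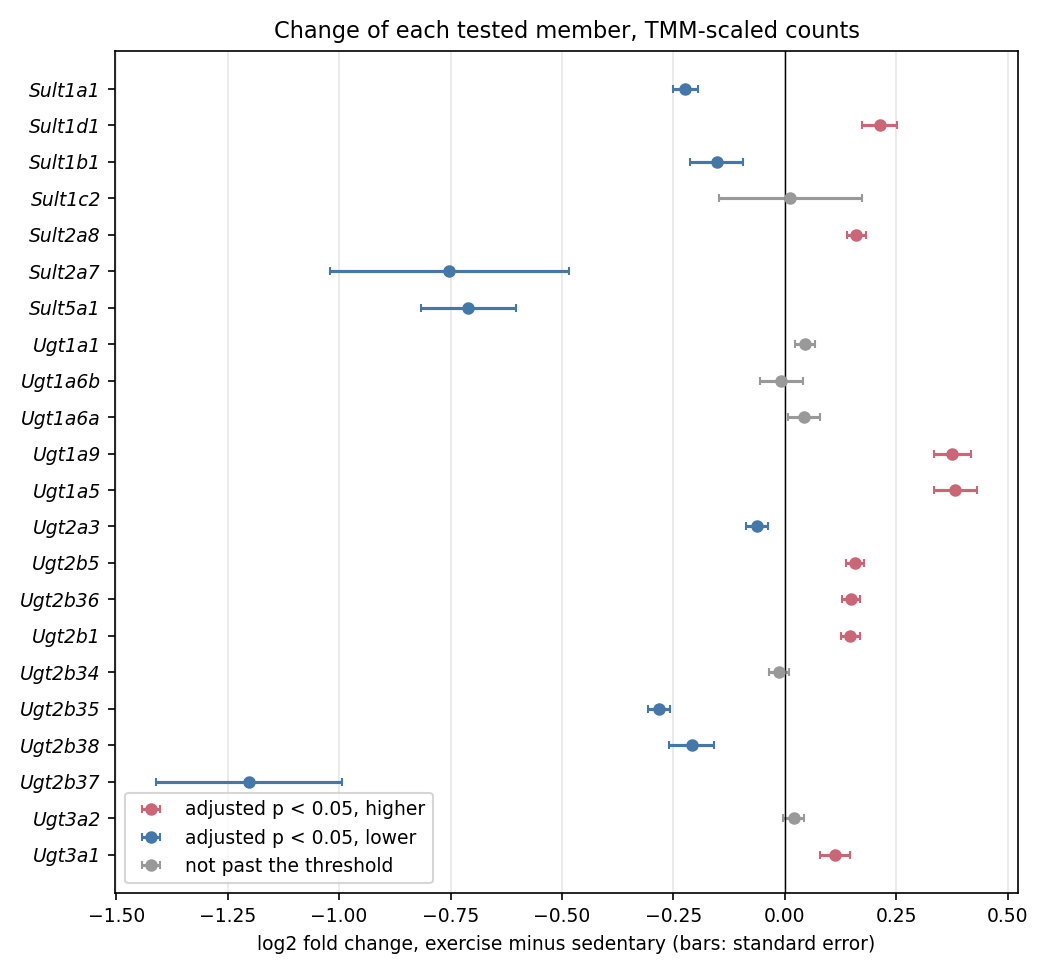
Log2 fold change (exercise minus sedentary) of the 22 tested genes from TMM-scaled counts, with bars of 1 standard error and colours for the edgeR call. Ugt1a9 and Ugt1a5 are farthest to the right at 0.38, and Ugt2b37, Sult2a7 and Sult5a1 farthest to the left at -1.20, -0.75 and -0.71.

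Among the sulfotransferases, 2 genes made up most of the FPKM, and they moved in opposite directions. Sult2a8, a bile acid sulfotransferase of mouse liver, rose, and Sult1a1, which acts on phenols, fell. Sult2a8 took 55.7% ± 0.534 of the Sult FPKM in sedentary and 61.5% ± 0.772 in exercise, and Sult1a1 33.9% ± 0.608 and 28.6% ± 0.914 (SD, n = 3 each). The total was 665 ± 7.09 FPKM in sedentary and 707 ± 1.97 in exercise. In TMM-scaled counts the Sult sum was higher in exercise by 0.070 on the log2 scale, and the Ugt sum by 0.070 too. In all, 2 of 7 tested Sult genes rose, 4 fell and 1 did not pass. Their median log2 fold change was -0.15, which is the value of Sult1b1, a call lost under 11 of 17 alternatives. The median of the 15 Ugt genes was 0.043.

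Sult2a8 (gene ID 76971, chr7:14410686-14446780) had 364, 368 and 379 FPKM in sedentary and 438, 438 and 427 in exercise. All exercise libraries were above the sedentary ones, and the log2 fold change was 0.16 (SE 0.021, edgeR adjusted p 1.86e-08). Its neighbour Sult2a7 (gene ID 638251, chr7:14465051-14493023), with 78.4% transcript identity and no shared window, was counted at 33, 23 and 22 reads in sedentary and 19, 13 and 16 in exercise. The exercise libraries were lower without overlap, and the log2 fold change was -0.75 (SE 0.27, edgeR adjusted p 0.0224). This call rests on few reads: it was lost without sedentary replicate 1 (adjusted p 0.169), without exercise replicate 2 (0.103) or 3 (0.052), and in DESeq2 (0.128).

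Sult1a1 (gene ID 20887, chr7:126672865-126690443) had 228, 222 and 225 FPKM in sedentary and 198, 200 and 209 in exercise. Each exercise library was below each sedentary one, and the log2 fold change was -0.22 (SE 0.028, edgeR adjusted p 3.79e-09). It was the only Sult gene with counts that were not whole. In all 6 libraries the missing fraction was that of Slx1b, a subunit of a structure-specific endonuclease, whose RefSeq model at chr7:126688927-126695783 overlaps that of Sult1a1. Slx1b had 122 to 158 reads per library, and the sums of both genes were whole within 0.011 of a read. These sums were 4215, 4071 and 4096 in sedentary and 3614, 3647 and 3836 in exercise, also without overlap. Strand use in counting is not given in the sources used here, so that reads from the overlap cannot be assigned with certainty.

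Sult1d1 (gene ID 53315, chr5:87554650-87569006), which acts on catecholamines in mouse, had 31.5, 33.9 and 34.2 FPKM in sedentary and 40.0, 42.7 and 38.9 in exercise. It was higher in every exercise library, with a log2 fold change of 0.21 (SE 0.039, edgeR adjusted p 1.41e-05). Sult1b1, its neighbour, which acts on thyroid hormones and phenols, had 18.4, 20.7 and 20.1 FPKM in sedentary and 18.1, 17.0 and 19.0 in exercise. The groups overlapped, and the log2 fold change was -0.15 (SE 0.058, edgeR adjusted p 0.0338). Leaving out any of 4 single libraries ended the call (sedentary replicates 2 and 3, exercise replicates 1 and 2, adjusted p 0.0844 to 0.145), as did DESeq2 (0.178), library totals alone (log2 fold change -0.076, adjusted p 0.304), the limma fits (0.114 and 0.115) and testing without a filter (0.0742). In all, 11 of 17 alternatives lost it. Sult5a1 (gene ID 57429, chr8:123142843-123158914) had 188, 186 and 161 reads in sedentary and 133, 98 and 109 in exercise, or 11.9, 11.7 and 10.4 against 8.57, 6.42 and 6.98 FPKM. All exercise libraries were lower, and the log2 fold change was -0.71 (SE 0.11, edgeR adjusted p 3.61e-07). Sult1c2 had 2.33 to 2.93 FPKM in sedentary and 2.53 to 3.09 in exercise, with a log2 fold change of 0.012 (SE 0.16, edgeR adjusted p 0.961). With 334 reads in all, a change of the size seen in Sult1a1 was not detectable at this depth. The estrogen sulfotransferase Sult1e1 had at most 4 reads in a library, the cholesterol sulfotransferase Sult2b1 at most 2, and Sult3a1 and Sult4a1 1 read each over all 6, which is too few to compare.

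**Figure D5:**
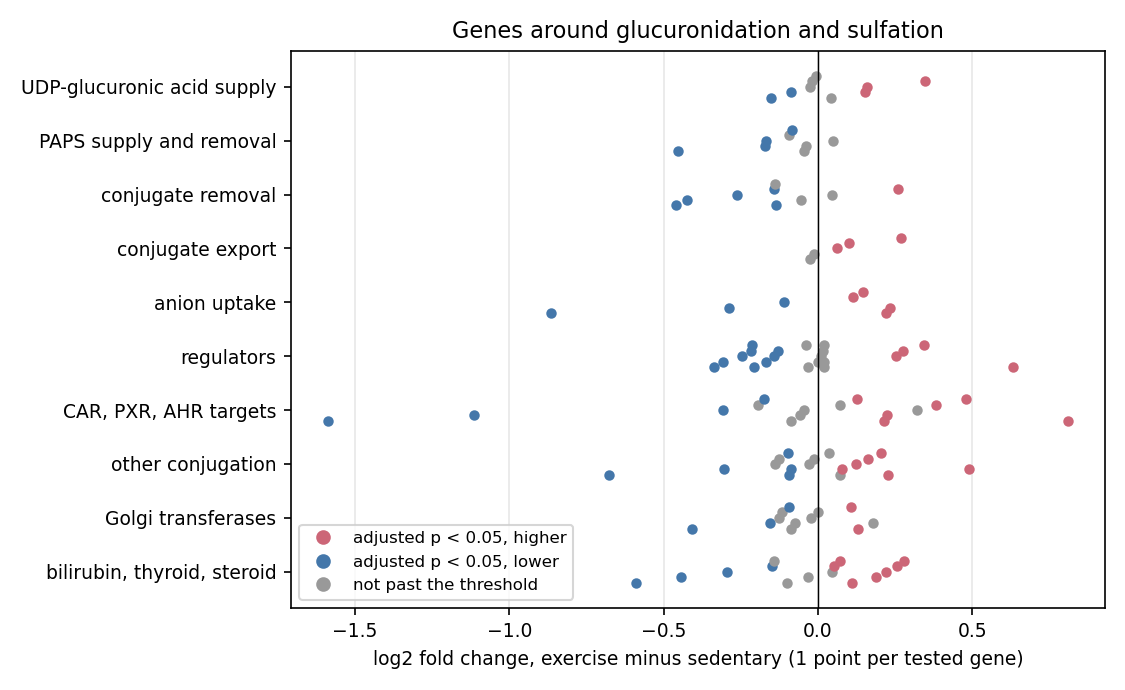
Log2 fold change of the tested genes in 10 lists around the transferases, 1 point per gene, coloured by the edgeR call. Conjugate export has 3 higher and none lower, and PAPS supply and removal none higher and 4 lower. The outermost points are Alas1 at -1.59 and Gsta2 at 0.81 among the targets of CAR, PXR and AHR.

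Genes around UDP-glucuronic acid and PAPS were described from lists, and the counts are to be read against the 38.1% of all genes that passed. For UDP-glucuronic acid, 3 of 9 tested genes rose and 2 fell, with a median log2 fold change of -0.0055. Ugp2, which makes UDP-glucose, went from 117 ± 1.83 to 156 ± 4.62 FPKM (SD, n = 3 each), a log2 fold change of 0.35 (edgeR adjusted p 1.30e-16). Ugdh, which oxidises UDP-glucose to UDP-glucuronic acid, was at -0.087, and Slc35d1, a carrier of UDP-glucuronic acid into the endoplasmic reticulum, at -0.15 (edgeR adjusted p 0.00936 and 0.000138). Slc35a3, a carrier of UDP-N-acetylglucosamine, rose by 0.15. For PAPS supply and removal, none of 8 tested genes rose and 4 fell, with a median of -0.089. The sulfate transporter Slc26a1 went from 49.0 ± 0.841 to 37.8 ± 0.265 FPKM, a log2 fold change of -0.45 (edgeR adjusted p 3.28e-18). The PAPS synthase Papss2 was at -0.17, the Golgi PAPS carrier Slc35b2 at -0.17 and the sulfite oxidase Suox at -0.083.

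Genes that take conjugates apart or move them were next. Of 9 tested hydrolases, 1 rose and 5 fell, with a median of -0.14. The lysosomal sulfatases Arsg, Sgsh and Arsb were at -0.46, -0.42 and -0.14, and Arsa at 0.26. The β-glucuronidase Gusb, named after its values were seen, was at -0.14 (edgeR adjusted p 0.0479). Of 5 tested exporters, 3 rose and none fell. Abcc3, which moves glucuronides into blood, went from 70.7 ± 1.48 to 89.8 ± 0.383 FPKM (SD, n = 3 each), a log2 fold change of 0.27 (edgeR adjusted p 1.33e-13). Abcc2, which carries bilirubin glucuronides into bile, was at 0.061, and Abcg2, which exports sulfates, at 0.10. Of 7 uptake carriers, 4 rose and 3 fell. The organic anion carrier Slco1b2 and the bile acid carrier Slc10a1 rose by 0.22 and 0.23, and Slc22a7 and Slco2b1 were at -0.86 and -0.29.

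Among 21 regulators, 4 rose and 9 fell, with a median log2 fold change of -0.034. Nr1i3, which encodes CAR, went from 81.8 ± 2.38 to 127 ± 2.17 FPKM (SD, n = 3 each), a log2 fold change of 0.63 (edgeR adjusted p 2.15e-23). Nfe2l2, the antioxidant response factor, and Hnf4a, a hepatocyte nuclear receptor, rose by 0.34 and 0.27. Nr1i2 (PXR), named after its values were seen, was at 0.25. All regulators given with values here had positive changes, and none of the 9 that fell is among them. Of 16 tested targets of CAR, PXR and AHR outside the 2 families, 6 rose and 4 fell. The epoxide hydrolase Ephx1 and the glutathione transferases Gstm1 and Gsta2 rose by 0.48, 0.38 and 0.81. Alas1, the first enzyme of haem synthesis, went from 201 ± 3.04 to 70.5 ± 1.60 FPKM, a log2 fold change of -1.59 (edgeR adjusted p 4.83e-43). Cyp2b10, a CAR target named after its values were seen, was low, at 1.65 ± 0.163 and 0.807 ± 0.231 FPKM, with a log2 fold change of -1.11 (edgeR adjusted p 3.10e-05). It met the FPKM filter only through the sedentary group. The list pools targets of different receptors, and its genes had changes of both signs. The part of the receptors in these changes was not tested.

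The other conjugating enzymes had no common direction either. Of 17 tested enzymes of methylation, acetylation, glycine and glutathione conjugation, 6 rose and 5 fell. The indole N-methyltransferase Inmt, the glutathione transferase Gstt1 and Gclm, a subunit of the enzyme that starts glutathione synthesis, rose by 0.49, 0.20 and 0.23, and the nicotinamide N-methyltransferase Nnmt was at -0.68. Golgi enzymes that place sulfate or glucuronic acid on glycans fall outside the name rule. Of 12 of them tested, 2 rose and 3 fell: Hs3st3b1 was at 0.11, and Ndst1, Chst13 and Hs6st1 were at -0.16, -0.41 and -0.094. Of 15 genes that handle bilirubin, thyroid hormone or steroids, 7 rose and 4 fell. Hsd17b2, Dio1 and Hsd3b3, which act on sex steroids, thyroid hormone and steroid precursors, were at -0.44, -0.59 and -0.30. Of the genes of this list that rose, only Slco1b2 is given, above. The median log2 fold change of the list was 0.045.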

How the data were processed

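Liver RNA of 6 mouse libraries was sequenced from both ends (DNBseq), per the labels. The submitters' processing notes name GRCm38.p6 as build, with cutadapt, featureCounts and MultiQC among the tools. For the aligner, annotation and strand setting, the sources used here give nothing. The deposited table gave, per the file headers, a read count, an FPKM and a TPM for each gene and library. The deposited counts are estimated counts, since 1165 of 16123 genes had one that was not whole. The authors' FPKM values were used as given for levels. The deposited TPM values were not used.

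The test covered 10266 genes whose FPKM averaged 1 or more across libraries. Rounded counts entered edgeR 4.0.16 under R 4.3.3 (TMM scaling, quasi-likelihood F test, two-sided, Benjamini-Hochberg over all 10266, threshold 0.05, prior count 0.125). The TMM factors were 0.972 to 0.977 in sedentary and 1.03 in exercise libraries. Standard errors were derived as log2 fold change over the root of F. Alternatives were DESeq2 1.42.0, limma 3.58.1 on log2(FPKM + 1) or log2(FPKM + 0.1), other scalings and filters, a test against a 1.2-fold change, each library left out, a replicate block, the Ugt1a rows summed, and, chosen after seeing the data, libraries summed per group at an assumed variation of 0.1. On data simulated for this comparison over 10266 genes, edgeR recovered 74% of the genes changed 1.25-fold and 94% of those changed 1.5-fold, and 7.07% of its calls were unchanged genes. The simulation used the dispersions fitted here and changed only a small share of genes, none of them with very few reads. Its figures therefore do not extend to genes with few reads, or to data where many genes change.

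The members and lists were chosen with earlier results of these data known. Members past the threshold without overlap of the FPKM groups and the most abundant of each family are given by library, and up to 4 genes of each list by smallest p. Promoters are from RefSeq (27 of 31 members matched) and gene coordinates from RefSeq GRCm38.p6. Transcripts are from GENCODE M21. Some items of the lists, and the motif search of the promoters, are not reported here.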

Additional observations from a re-analysis of the deposited data

How the results depend on the processing

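Of all genes, 2512 passed in DESeq2 (1272 higher, 1240 lower), 653 in the test against a 1.2-fold change (239 and 414) and 176 with summed libraries at the assumed variation of 0.1 (50 and 126), against 3913. Without TMM 3537 were higher and 1203 lower, and the limma fits had 1099 and 1096 lower. Among Ugt genes, 10 were higher without TMM, 3 passed the 1.2-fold test (Ugt1a5 and Ugt1a9 higher, Ugt2b37 lower; 2 and 1) and 1 passed with summed libraries (0 higher, 1 lower, Ugt2b37). Among Sult genes, 2 were lower in DESeq2, 1 passed the 1.2-fold test (0 higher, 1 lower, Sult5a1) and 0 passed with summed libraries (0 higher, 0 lower, at a variation assumed rather than measured). Leaving out 1 library gave 3402 to 3491 calls over all genes, 9 to 11 Ugt, 4 to 5 Sult and 2 to 3 lower Sult.

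Signs turned for genes near 0: Sult1c2 (-0.016, -0.056 and -0.082 without sedentary 2, sedentary 3 or exercise 2), Ugt1a6a (-0.0017 and -0.0038 without sedentary 3 or exercise 1, up to 0.083 without others), Ugt1a6b (0.070 without TMM, 0.00065 without a filter, 0.053 in both limma fits, 0.0015 without sedentary 3, 0.12 without exercise 2, down to -0.11 without exercise 3), Ugt2a3 (0.015 without TMM, 0.012 in both limma fits) and Ugt2b34 (0.064 without TMM, where it passed, 0.061 in both limma fits). The cause was not tested. Same-numbered libraries did not deviate together (r -0.031, -0.016 and -0.025). Such values cannot exclude a weak pairing between libraries this alike. With a replicate block, 3846 genes passed, 9 Ugt and 6 Sult, and Ugt2a3 was lost (adjusted p 0.0552).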
